A study of Mus musculus with 9 samples.

Results

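The wild-type main olfactory epithelium is described here across all genes, from the 3 wild-type mice of a series of 9. The members were chosen by the genotype in the sample labels and by nothing measured. The mice were C57BL/6 littermate controls, aged 8 to 12 weeks, of mice that lack the Ms4a gene cluster or Ms4a6c, and the labels give neither their sex nor the line each came from. The epithelium was dissected whole, so the RNA came from every cell type in the piece taken, and each library came from a separate animal. The libraries were directional and made from poly-A RNA, and they summed to 20047533, 16406654 and 15772418 expected counts in wild-type mice 1, 2 and 3. Where 3 values follow each other below, they are in that order of mice.

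The main olfactory epithelium lines the back of the nasal cavity and detects volatile odors. Most of its olfactory sensory neurons (OSNs) carry odorant receptors on cilia in the mucus. There, receptor binding activates the G protein Golf, raises cyclic AMP and opens a cyclic nucleotide-gated channel. Sustentacular cells surround the neurons and metabolize odors and toxins, microvillous cells lie between them, and globose and horizontal basal cells replace lost neurons. Bowman's glands below the epithelium and the nasal glands nearby secrete mucus and small carrier proteins. In bulk tissue, fewer cells of a type and less RNA per cell cannot be told apart.

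Levels are given as CPM, the count of a gene relative to a library size scaled by TMM. This scaling sets the library sizes so that most genes sit at equal levels between libraries. Its factors were 0.736, 1.16 and 1.17. Without it, the median gene at 10 CPM or more was 0.66 lower on the log2 scale in wild-type mouse 1 than in the mean of the others, against a difference of 0.01 with it. Levels of different genes are compared as CPM per kilobase of the longest annotated transcript, and an order given by CPM is one of reads, in which longer transcripts stand higher. A gene was taken as above the counting floor when it had more than 3 counts, which is 0.203, 0.157 and 0.163 CPM, and this floor covers counting error only. Ms4a6c, deleted in part of the series, was present in each wild-type library with 54.0, 90.3 and 81.5 counts.

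The 100 bases before the annotated start of 5 genes are shown, 3 that differed widely between the mice and 2 of mature OSNs. The 2 of mature OSNs both hold CCCNNGGG. The windows of the mature OSN genes Stoml3 and Umodl1 were also drawn, held neither set of letters and are not printed. They come from RefSeq on GRCm38.p6, 5′ to 3′ on the strand of the gene. Capitals mark TATAAA, the letters of a TATA box, or CCCNNGGG, the core letters bound by the EBF factors of olfactory neurons, on the strand printed. Only these exact letters were sought. The Gm14744 window holds tatataag, which is close to TATAAA and was neither marked nor counted. An unmarked window may thus still hold a TATA box in other letters.
Obp1a, odorant-binding protein, chrX:78091375-78091474, minus strand: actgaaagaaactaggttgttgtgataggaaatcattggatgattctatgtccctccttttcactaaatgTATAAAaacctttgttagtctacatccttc
Gm14744, predicted gene next to the Obp1 genes, chrX:77864658-77864757, plus strand: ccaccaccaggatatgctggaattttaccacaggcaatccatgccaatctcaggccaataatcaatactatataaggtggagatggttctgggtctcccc
Gm6619, predicted gene, chr6:131486306-131486405, plus strand: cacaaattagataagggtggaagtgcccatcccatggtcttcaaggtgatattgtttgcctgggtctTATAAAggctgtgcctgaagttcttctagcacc
Gfy, Golgi protein of olfactory neurons, chr7:45179598-45179697, minus strand: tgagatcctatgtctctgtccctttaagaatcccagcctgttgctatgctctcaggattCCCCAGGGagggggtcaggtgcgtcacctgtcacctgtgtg
Cnga2, cyclic nucleotide-gated channel subunit, chrX:71991749-71991848, plus strand: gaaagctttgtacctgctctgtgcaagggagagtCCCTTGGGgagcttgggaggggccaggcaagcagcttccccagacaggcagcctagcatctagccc

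Counted on both strands of these 100-base windows, TATAAA was found in 5.56% of all 32851 RefSeq windows and in 8 of the 11 windows of the most abundant genes of wild-type mouse 1, those at 10000 CPM or more. It was in 0 of the 22 windows of the mature OSN genes. CCCNNGGG reads the same on both strands and was in 5.27% of all windows, in 4 of the 22 mature OSN windows (18.2%), in 2 of the 12 sustentacular windows (16.7%), in 1.37% of the odorant receptor windows, and in 0 of the 11 windows of the most abundant genes of wild-type mouse 1. TATAAA was also in 2 of the 12 sustentacular windows and in 17.0% of the odorant receptor windows. In the nasal gland list, which shares genes with the most abundant set, TATAAA was in 8 of 15 windows (53.3%) and CCCNNGGG in 1 of 15 (6.67%). The 11 windows were picked by the level of their genes in wild-type mouse 1. Near-identical pairs among them were not merged, so these windows are not independent. The 250 bases before the start were 99.2% identical between Gm14744 and its neighbor 5430402E10Rik, and 97.1% identical between Gm6619 and 5430401F13Rik. Between Obp1a and Gm14744 they were 64.2% identical. Of the odorant receptor windows, 72.3% began at the ATG of the coding sequence and thus do not show the start of the transcript. A match to these letters is a description of the sequence and shows no binding.

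The tissue label was checked against markers of the neuronal, supporting, basal and microvillous cells, and the 5 markers were present in every mouse. Omp, the olfactory marker protein of mature OSNs (ENSMUSG00000074006.3, GRCm38 chromosome 7, 98143359 to 98145502, minus strand), was at 4292, 4873 and 4681 CPM. Per kilobase it was the gene of rank 35, 16 and 17 in the 3 mice. Cnga2, which opens in response to cyclic AMP, was at 776, 995 and 945 CPM and at rank 178, 125 and 125 per kilobase. Both neuronal genes were thus among the most abundant transcripts of the tissue.

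Krt18, a keratin of sustentacular cells, was at 388, 355 and 333 CPM, and Krt5, a keratin of horizontal basal cells, was at 52.2, 52.5 and 53.6 CPM. Trpm5, a channel of microvillous and tuft cells, was at 7.93, 10.1 and 9.97 CPM. Per kilobase, mean levels over the 3 mice were 2153 ± 138 (SD, n = 3) for Omp, 295 ± 37.5 for Cnga2, 250 ± 19.3 for Krt18, 24.0 ± 0.338 for Krt5 and 2.26 ± 0.294 for Trpm5, all in CPM per kilobase. The order was the same in each mouse except that Krt18 was above Cnga2 in wild-type mouse 1. Counts relative to Omp in the same library do not depend on scaling. For each 100 counts of Omp there were 18.1, 20.4 and 20.2 of Cnga2, 9.04, 7.29 and 7.11 of Krt18, 1.22, 1.08 and 1.15 of Krt5 and 0.185, 0.207 and 0.213 of Trpm5.

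Of the 55291 genes in the table, 27719 had a count in 1 or more of the mice and 18507 were above 3 counts in all of them. At least 1 CPM in each mouse was reached by 15599 genes, of which 14506 were protein coding, out of 21887 protein-coding genes. Levels of at least 10 CPM were reached in each mouse by 10156 genes, at least 100 CPM by 1506 and at least 1000 CPM by 53. Protein-coding genes held 96.8, 97.3 and 97.2% of the counts. The mitochondrially encoded genes held 4.35, 6.22 and 6.29%, and 5.58, 6.35 and 6.42% once the nasal gland list was left out of the library.

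Wild-type mouse 1 stood apart in how its reads were shared out. The 10 most abundant genes held 33.9% of its counts, against 7.98 and 7.79% in the others, and the 100 most abundant held 50.1, 23.3 and 23.4%. A total of 98 genes held 50% of the counts in wild-type mouse 1, compared with 1021 and 1036 genes in wild-type mice 2 and 3. Among the 10 most abundant genes, wild-type mouse 1 shared 0 with either of the others, while these shared 9 with each other, mitochondrially encoded genes included. Among the 100 most abundant, it shared 85 and 82 with wild-type mice 2 and 3, and these shared 95. By these overlaps, wild-type mouse 1 differed more among the 10 most abundant genes than among the 100. Genes lower in the order also differed, as given below.

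Apart from mitochondrially encoded genes, the most abundant transcripts by CPM of wild-type mouse 1 were Bpifb9b, Gm14744, Bpifb9a, Gm6619, Obp2a, 5430401F13Rik, Mup4, Obp1b, Obp1a and BC051076. The 10 of wild-type mouse 2 included Bpifa1, Cyp2a5, Ugt2a1, Omp, Cyp2g1, Eef1a1, Sec14l3, Gm10925 and Stom. Wild-type mouse 3 had 8 of the same 10, with Col1a2 and Bpifb9b in place of Sec14l3 and Stom. In these mice the top of the order held a secreted airway protein (Bpifa1), 4 genes of the sustentacular list (Cyp2a5, Ugt2a1, Cyp2g1 and, in wild-type mouse 2, Sec14l3) and a marker of mature neurons (Omp). Gm10925 shares 678 identical bases with mt-Atp6 of the mitochondrial genome, and its 3236, 3067 and 3519 CPM cannot be told apart from reads of that gene.

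The 18 mature OSN genes summed to 17063, 18744 and 18264 CPM, a mean of 18024 ± 866 (SD, n = 3), and all were above the floor in each mouse. They held 1.26, 2.18 and 2.14% of the counts. The transduction chain was covered from receptor to channel. Gnal, the alpha subunit of Golf, was at 2054, 2344 and 2299.6 CPM, and Gng13, a gamma subunit, was at 331, 351 and 342 CPM. Adcy3, the adenylyl cyclase of the cilia, was at 1090.2, 1214 and 1176 CPM. The channel subunits Cnga4 and Cngb1, which assemble with Cnga2, were at 326, 379 and 362 CPM and at 389.7, 427 and 422 CPM. The chloride channel Ano2, which amplifies the current, was at 345, 337 and 313 CPM.

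**Figure D1:**
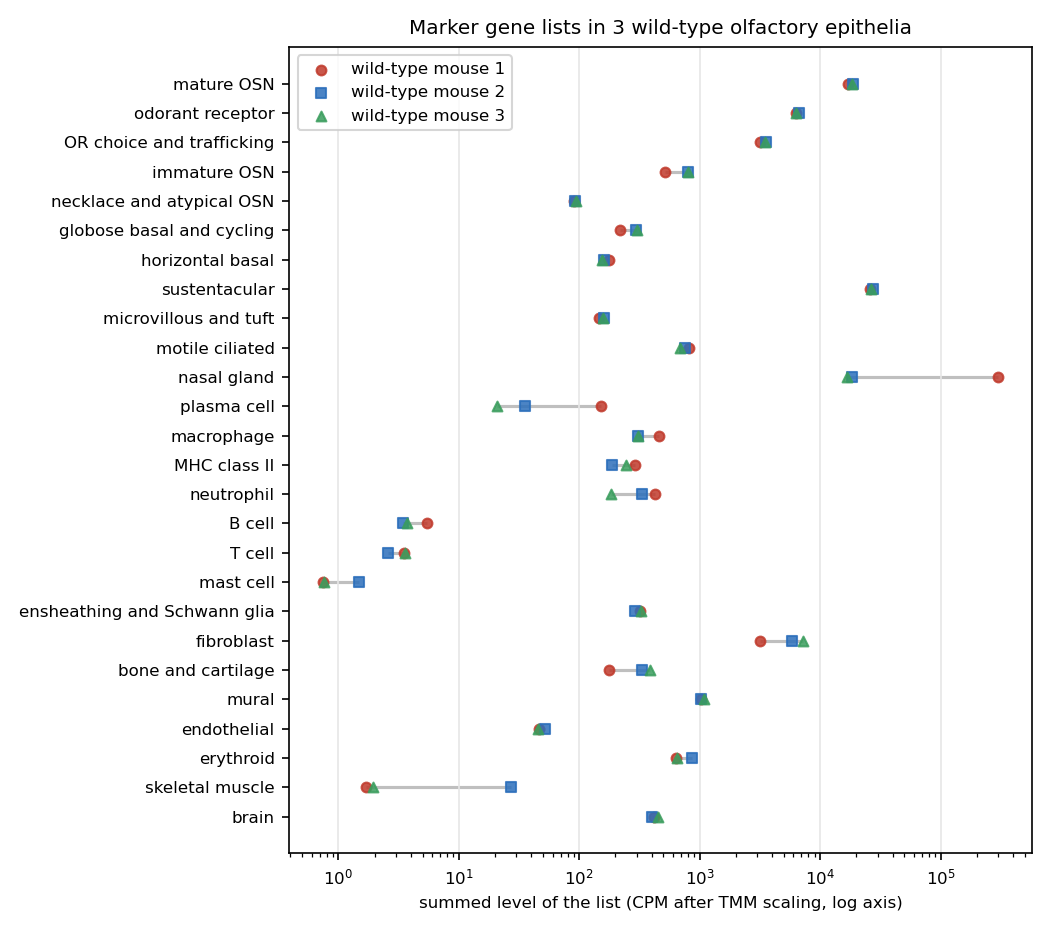
Summed level of each marker gene list in CPM after TMM scaling (log axis), with a point for each of the 3 wild-type mice and a line joining the lowest and the highest. The neuronal and sustentacular lists lie close together in the 3 mice, while the nasal gland list reaches 301344 CPM in wild-type mouse 1 against 18366 and 16712 CPM in the others, and the plasma cell and skeletal muscle lists also spread.

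Per kilobase the most abundant mature OSN transcripts were Omp, S100a5 at 1618 ± 211, Stoml3 at 1095 ± 113 and Gfy at 822 ± 22.7 CPM per kilobase (SD, n = 3). S100a5 is a small calcium-binding protein and Stoml3 a stomatin-like protein of the OSN cilia. Slc24a4, the exchanger that returns calcium out of the cilia, was the lowest of the list at 15.3 ± 0.269 CPM per kilobase. The list thus spanned a wide range of levels.

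The spread between mice was compared with counting error by a chi-square test of homogeneity over the 3 libraries for each gene, with Benjamini-Hochberg adjustment over 20193 genes. It called 5702 genes at an adjusted p under 0.05, or 28.2% of those tested, and 1333 genes, 6.6%, were called with a highest level at least 2-fold over the lowest. The test compares these libraries with each other and not conditions. The share called rose with level, from 20.8% at 1 to 10 CPM to 63.2% at 100 to 1000 CPM. A count of called genes thus depends on depth. Of the 18 mature OSN genes, 15 were called and 0 differed by 2-fold or more. Their median ratio of highest to lowest was 1.11, against 1.24 over all tested genes and 1.10 over those at 100 to 1000 CPM. The share called at 2-fold or more also changed with level. It was 12.9% below 1 CPM, 11.3% from 1 to 10 CPM, 1.64% from 10 to 100 CPM and 1.44% from 100 to 1000 CPM. Above 1000 CPM it was 23.6%. The 6.6% over all tested genes, given below beside each list, is thus not matched to the level of the list. At 63317, 92872 and 86391 counts, even the 1.14-fold range of Omp exceeded counting error. S100a5 spanned 1.29-fold, from 795 CPM in wild-type mouse 1 to 681 and 615 CPM in the others, and it was the mature OSN gene with the widest range.

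The genes for receptor choice and trafficking, 14 in all, summed to 3183, 3569 and 3478 CPM. Lhx2 and Ldb1, the partners that bind receptor gene enhancers, were at 159, 178 and 171 CPM and at 114, 119 and 119 CPM. The 4 Ebf factors were each above 100 CPM in every mouse, with Ebf2 highest per kilobase at 59.6 ± 1.29 and Ebf1 lowest at 32.9 ± 2.63 CPM per kilobase (SD, n = 3). Rtp1, which carries receptors to the membrane, was at 554, 598 and 539 CPM, and Rtp2 was at 339, 339 and 336 CPM. Atf5, the factor of the receptor feedback signal, was at 968, 1197 and 1176 CPM. The test called 6 of the 14 genes (42.9%) and 0 at 2-fold or more, against 28.2% and 6.6% of all tested genes.

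Genes of immature OSNs were lower in wild-type mouse 1. Their sum was 520, 807 and 796 CPM, or 3.05, 4.31 and 4.36 counts for each 100 counts of the mature OSN list. Gap43, a growth cone protein, was at 47.7, 82.4 and 79.0 CPM, and Dpysl3, which acts in axon growth, was at 145, 229 and 226 CPM. Stmn2 and Dcx, which bind tubulin and microtubules, were at 117, 173 and 180.2 CPM and at 74.8, 118 and 114 CPM. All 8 genes of the list were called, 0 at 2-fold or more, against 28.2% and 6.6% of all tested genes. In all 8, wild-type mouse 1 had the lowest value, as it had in 38.7% of all tested genes. The list also took the smallest share of all counts there, at 0.0382, 0.0938 and 0.0931%.

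The sum of the globose basal and cycling genes was also lowest in wild-type mouse 1, at 218, 295 and 299 CPM. The proneural factor Neurod1, which marks newly formed neuronal precursors, was at 9.76, 16.6 and 16.8 CPM. Top2a, a topoisomerase of dividing cells, was at 19.3, 33.4 and 32.9 CPM, and Sox11 was at 41.7, 65.0 and 69.7 CPM. Of the 13 genes, 8 were called (61.5%) and 0 at 2-fold or more, against 28.2% and 6.6% of all tested genes. Kit, a receptor of globose basal cells, was at 12.7, 12.7 and 14.1 CPM and was not called. Relative to the mature OSN list the sum was 1.28, 1.57 and 1.64 counts for each 100.

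Horizontal basal genes, which mark the reserve stem cells, summed to 177, 159.9 and 155 CPM. Krt14, the partner of Krt5, was at 23.7, 22.1 and 20.4 CPM, and Trp63, the factor that keeps these cells at rest, was at 16.3, 17.3 and 15.2 CPM. Neither Krt5 nor Krt14 nor Trp63 was called. Of the 9 genes 2 were called, or 22.2%, against 28.2% of all tested genes. These were Itga6 at 35.9, 20.6 and 22.3 CPM and Krt15 at 5.29, 8.55 and 1.79 CPM. Krt15 differed by 4.78-fold between wild-type mice 2 and 3.

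The sustentacular list was even between the mice after scaling, while as a share of all counts it held 1.90, 3.18 and 3.11%. Its 14 genes summed to 25823, 27340 and 26585 CPM, a mean of 26583 ± 759 (SD, n = 3), and held 1.51, 1.46 and 1.46 counts for each count of the mature OSN list. Cyp2a5, a cytochrome P450 of odor and toxin metabolism, was at 8682, 8770 and 8704 CPM and was not called. The olfactory cytochrome Cyp2g1 was at 4355, 4425 and 4364 CPM, and Ugt2a1, which adds glucuronic acid to odors, was at 5246, 5535 and 5429.6 CPM. Sec14l3, a lipid-binding protein, was at 3115, 3382 and 3204 CPM. Cbr2, a carbonyl reductase, had the widest range of the list, 1.32-fold, with 1814, 2388 and 2263 CPM. In all, 12 of the 14 genes were called (85.7%) and 0 at 2-fold or more, against 28.2% and 6.6% of all tested genes. The called differences of the list were thus small against the depth of its genes.

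Per kilobase Cyp2a5 reached 4331 ± 22.7, Cyp2g1 2311 ± 19.9 and Ugt2a1 2103 ± 57.0 CPM per kilobase (SD, n = 3), compared with 2153 ± 138 for Omp. Ugt2a1 and Omp did not differ beyond their spread, and Cyp2a5 was above both in every mouse. Cyp2a5 shares 98.2% of 1739 bases with Cyp2a4, and Ugt2a1 shares sequence with Ugt2a2, so reads may have been split between these genes in counting. The mean of Cyp2a4 was 25.6 CPM. The keratins Krt18 and Krt8, which form filaments together, stood at 1.24, 1.15 and 1.14 counts of Krt18 for each count of Krt8.

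Microvillous and tuft genes were scarce, with even sums after scaling of 146, 159 and 157 CPM. As a share of all counts they held 0.0107, 0.0185 and 0.0183%. The ionocyte-type genes Ascl3, Foxi1 and Cftr were at 24.8, 31.3 and 31.5 CPM, at 18.8, 21.9 and 21.5 CPM and at 24.1, 24.5 and 24.8 CPM. The tuft cell factor Pou2f3 was at 6.24, 7.71 and 6.45 CPM. Chat, the enzyme of acetylcholine synthesis in the Trpm5 cells, had 3, 4 and 3 counts and was thus at or next to the floor. The list had 4 called genes of 12, or 33.3%, near the 28.2% of all tested genes. Avil, at 2.58, 5.4 and 10.7 CPM, and Sh2d6, at 0.949, 2.36 and 2.0 CPM, were called at 2-fold or more, each lowest in wild-type mouse 1. These were 16.7% of the list, against 6.6% of all tested genes called at 2-fold or more and 2.16% so with wild-type mouse 1 lowest. At a mean of 1 to 10 CPM, where Avil and Sh2d6 lie, 11.3% of tested genes were called at 2-fold or more.

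Genes of motile cilia, which belong to the respiratory part of the nasal lining, were present in all mice with sums of 816, 752 and 687 CPM. Foxj1, the factor of motile cilia, was at 135, 121 and 115 CPM, and the dynein Dnah5 was at 151, 115 and 95.5 CPM. Of the 12 genes, 8 were called (66.7%) and 0 at 2-fold or more, against 28.2% and 6.6% of all tested genes. The order of the mice depended on the scaling, since as a share of all counts the list held 0.0600, 0.0873 and 0.0804%. Genes of necklace and atypical OSNs summed to 91.2, 92.0 and 94.6 CPM, of which the carbonic anhydrase Car2 made up 75.1%. Gucy2d, the guanylyl cyclase of the necklace neurons, was at 2.51, 2.26 and 1.84 CPM.

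The nasal gland list took up a large share of the reads in wild-type mouse 1 and a small share in the others. Of its 19 genes, 17 were in the table, and they held 22.2, 2.13 and 1.96% of all counts, or 301344, 18366 and 16712 CPM after scaling. For each count of the mature OSN list there were 17.7, 0.980 and 0.915 counts of gland genes. Bpifb9b, a secreted protein of the BPI fold family (GRCm38 chromosome 2, 154307227 to 154320646, plus strand), was at 141634, 1424 and 3308 CPM and alone held 10.4% of the wild-type mouse 1 library. Of the 17 genes 16 were called, 10 at 2-fold or more, 8 of which were highest in wild-type mouse 1. Over all tested genes, 28.2% were called, 6.6% at 2-fold or more, and 3.07% at 2-fold or more with wild-type mouse 1 highest.

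**Figure D2:**
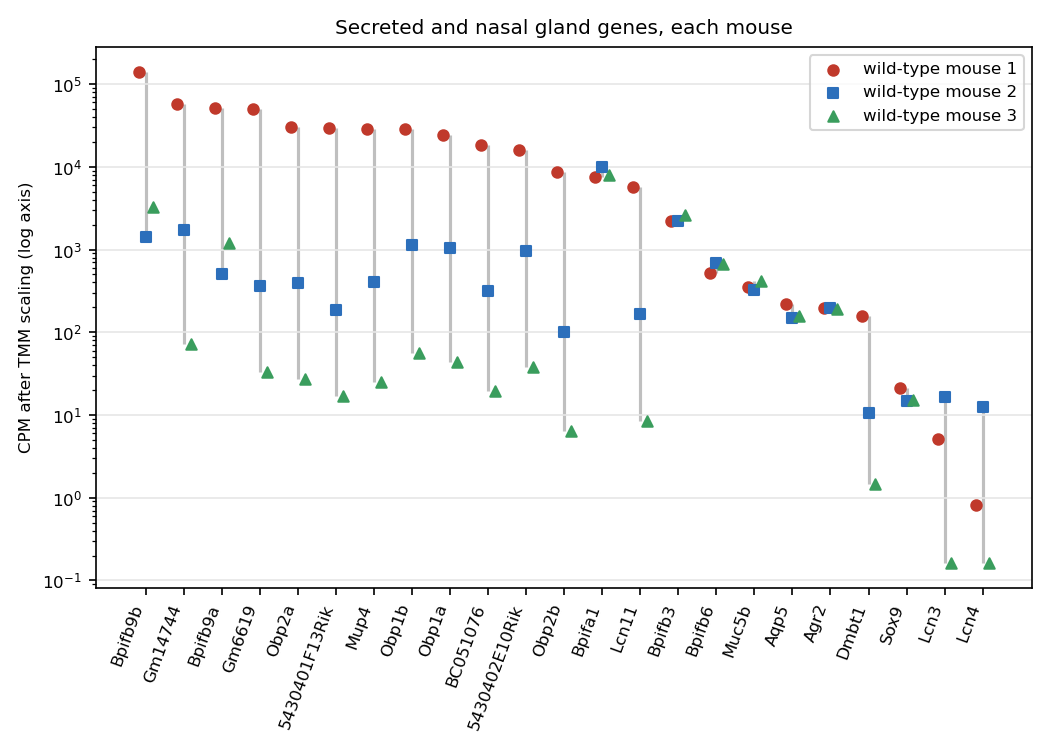
CPM after TMM scaling (log axis) of the nasal gland genes and of secreted genes named after their values were seen, for each of the 3 wild-type mice. Wild-type mouse 1 (circles) lies above the others for most of the genes, Bpifb9a and Bpifb9b are higher in wild-type mouse 3 than in wild-type mouse 2, and Bpifa1, Bpifb3, Bpifb6, Muc5b, Aqp5, Agr2 and Sox9 lie close together.

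The gland genes did not move as a block. The odorant-binding proteins, small lipocalins that carry odors and pheromones in nasal mucus, were highest in wild-type mouse 1 and lowest in wild-type mouse 3. Obp1a was at 24542, 1043 and 43.3 CPM, Obp2a at 30099, 389 and 27.6 CPM and Lcn11 at 5779, 164 and 8.40 CPM. Wild-type mice 2 and 3 differed by 24.1-fold in Obp1a and by 14.1-fold in Obp2a, so the contrast was not confined to wild-type mouse 1. The pair Bpifb9a and Bpifb9b had another order. In wild-type mouse 2 they were at 0.432 and 0.431 of their levels in wild-type mouse 3, and the counts of Bpifb9b for each count of Obp1a were 5.77, 1.37 and 76.4.

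Lcn3 and Lcn4, lipocalins linked to the vomeronasal organ, were highest in wild-type mouse 2, at 5.08, 16.4 and 0.163 CPM and at 0.814, 12.6 and 0.163 CPM, with wild-type mouse 3 at the floor. A further 7 genes ranged by less than 1.5-fold. Bpifa1, an abundant protein of airway secretions, was at 7473, 9989 and 8020 CPM, and Bpifb3 was at 2203, 2184 and 2599.99 CPM. The mucin Muc5b was at 349, 326 and 414 CPM, the water channel Aqp5 at 218, 147 and 158 CPM and the mucin-folding protein Agr2 at 195, 199 and 192 CPM. Sox9, a factor of Bowman's gland cells, was at 21.2, 14.6 and 15.1 CPM. These 7 were set apart by their narrow ranges, in the same mice in which Obp1a differed by 567-fold and Obp2a by 1091-fold.

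Abundant genes outside the list, chosen after their values were seen, followed the odorant-binding proteins. Gm14744 was at 56941, 1706 and 72.9 CPM, Gm6619 at 50604, 361 and 33.5 CPM, and the major urinary protein gene Mup4 at 28777, 400 and 25.3 CPM. The kallikrein Klk1, a protease of salivary and other glands, was at 164, 7.97 and 0.0542 CPM, and the prolactin-induced protein Pip was at 115, 1.99 and 0.325 CPM. Crisp1, a cysteine-rich secretory protein, was instead highest in wild-type mouse 2, at 1.42, 51.6 and 0.163 CPM. 2310057J18Rik was at 335, 8.34 and 0.0542 CPM, where wild-type mouse 3 was under the floor, so that its range is a lower bound.

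These genes come in near-identical pairs, which limits what can be said of a member alone. Bpifb9a and Bpifb9b share 99.3% of 2065 aligned bases, Gm6619 and 5430401F13Rik share 99.2% of 608, and Gm14744 and 5430402E10Rik share 99.1% of 797. The annotation also places Gm6619 (GRCm38 chromosome 6, 131486400 to 131491493, plus strand) within the span of 5430401F13Rik. Mup4 shares 92.4% of 922 bases with Mup5. Obp1a had no copy at 90% identity over 300 bases, and its values are not open to such a split.

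The labels give no sex, and sex-linked genes set wild-type mouse 1 apart from the others. Xist, the RNA that silences an X chromosome, had 0 counts in wild-type mouse 1 and was at 280 and 348 CPM in wild-type mice 2 and 3. Ddx3y and Eif2s3y, on the Y chromosome, were at 39.5, 0.420 and 0.434 CPM and at 56.2, 0.157 and 0.379 CPM. With 1 mouse on one side, sex and any other difference of wild-type mouse 1 cannot be told apart. The 24.1-fold difference in Obp1a lay between the mice that both expressed Xist, and a role of sex in the gland genes was not tested.

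Immune genes were a small part of the RNA. The complement subunits C1qa and C1qb, made by macrophages, were at 20.8, 16.8 and 18.4 CPM and at 19.8, 18.2 and 21.7 CPM. The macrophage list summed to 463, 309.8 and 309.9 CPM, of which Lyz2, a lysozyme also made by gland cells, was 320.0, 168 and 149 CPM. As a share of all counts the list held 0.0340, 0.0360 and 0.0363%, so the order of the mice depended on scaling. The MHC class II genes, which present antigen, summed to 289, 188 and 247 CPM. All 4 were called with 0 at 2-fold or more, against 28.2% and 6.6% of all tested genes. As a share of counts the MHC class II genes held 0.0213, 0.0218 and 0.0289%, with wild-type mouse 1 lowest.

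Plasma cell genes were the immune group with the widest range. The 5 genes summed to 152, 35.3 and 20.9 CPM, all were called at 2-fold or more, and all were highest in wild-type mouse 1, against 6.6% and 3.07% of all tested genes. The antibody genes Igha and Igkc were at 48.7, 2.20 and 5.53 CPM and at 51.5, 11.3 and 6.07 CPM, and Jchain, which joins IgA and IgM into polymers, was at 20.2, 2.83 and 2.22 CPM. They also held the largest share of all counts in wild-type mouse 1, at 0.0112, 0.00410 and 0.00244%. Plasma cells of the nose lie around glands, and the gland list moved in the same direction with 22.2, 2.13 and 1.96% of counts, a link that was not tested.

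Neutrophil genes summed to 425, 335 and 185 CPM. Of the 8, 6 were called (75%) and 4 at 2-fold or more (50%), against 28.2% and 6.6% of all tested genes. The lactoferrin gene Ltf, which gland cells also express, made up 76.6% of the sum, at 339, 262 and 122 CPM, while S100a8 and S100a9, the calcium-binding proteins of neutrophils, were at 20.5, 16.5 and 16.4 CPM and at 34.2, 27.9 and 26.6 CPM. As a share of all counts the list held 0.0313, 0.0389 and 0.0216%, so that the order of wild-type mice 1 and 2 depended on scaling. Lymphocyte genes were low. B cell genes summed to 5.41, 3.46 and 3.74 CPM. Of the 6, 2 (33.3%) were called at 2-fold or more, both highest in wild-type mouse 1, against 6.6% and 3.07% of all tested genes. None of the 6 reached 1 CPM in each mouse. Of tested genes at a mean below 1 CPM, 12.9% were called, all at 2-fold or more. Among the 2 B cell genes called was Cd79a, a subunit of the B cell receptor, at 1.42, 0.525 and 0.596 CPM. T cell genes summed to 3.53, 2.57 and 3.59 CPM. Ms4a1, which encodes CD20, had 10, 10 and 14 counts. The authors report Ms4a1 RNA and protein in sparse neurons of this epithelium that lack lymphoid markers. Whole-tissue counts do not tell RNA of such neurons from RNA of B cells. At these counts differences between mice in Ms4a1 were not detectable.

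Some genes of connective tissue and bone differed between the mice. Fibroblast genes summed to 3164, 5888 and 7246 CPM, led by the collagens Col1a2 at 1254, 2746 and 3369 CPM and Col1a1 at 1017, 2106 and 2813 CPM. These were the 2 genes of 6 called at 2-fold or more (33.3%, against 6.6% of all tested genes). Dcn and Lum, a pair of small matrix proteoglycans, were at 441, 512 and 494 CPM and at 210.0, 207 and 235 CPM. Bone and cartilage genes had the same order of mice, with sums of 178, 330.1 and 390.4 CPM. The osteoblast genes Bglap and Ibsp were at 59.2, 129 and 155 CPM and at 98.8, 169.7 and 199 CPM. All 5 genes of that list were called and 4 at 2-fold or more, each lowest in wild-type mouse 1, against 2.16% of all tested genes called so. The endothelial list summed to 46.1, 52.0 and 45.6 CPM. Of its 7 genes the chi-square test called 0, and likewise 0 at an unadjusted p under 0.05, against 28.2% called of all tested genes. With 7 genes, 0 called does not show that they were stable. Hemoglobin and other erythroid genes summed to 635, 863 and 648 CPM, and mural genes of vessel walls to 1025, 1029.7 and 1093 CPM.

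Some genes known from other tissues were seen mainly in wild-type mouse 2 or wild-type mouse 3. The skeletal muscle genes Acta1, Ckm and Mylpf were at 0.136, 9.13 and 0.488 CPM, at 0.542, 6.75 and 0.163 CPM and at 1.02, 6.51 and 1.3 CPM. The remaining genes of this paragraph were chosen after their values were seen. The pituitary hormone genes Prl and Gh were at 0, 320.1 and 20.5 CPM and at 0.203, 124 and 19.4 CPM, while Pomc was at 1.36, 2.10 and 1.79 CPM and Tshb and Fshb were at or under the floor. Cga, the alpha subunit shared by the pituitary glycoprotein hormones, was at 0, 2.05 and 0.813 CPM and was called, while Lhb was highest in wild-type mouse 1, at 0.971, 0.358 and 0.316 CPM, and was not called. The neurofilament genes Nefl, Nefm and Nefh, abundant in large sensory axons, were at 0.407, 0.892 and 35.3 CPM, at 0.136, 0 and 29.2 CPM and at 1.42, 1.99 and 21.5 CPM. With them Scn10a, a sodium channel of pain-sensing neurons, was at 0, 0.105 and 4.77 CPM and Calca, a peptide of the same neurons, at 0.203, 0.787 and 6.56 CPM. Brain genes summed to 417, 404 and 453 CPM, of which the water channel Aqp4 was 84.6%, while Gad1 was at 1.02, 0.420 and 5.96 CPM and the myelin gene Mog had 0, 0 and 7 counts. Glial genes of the olfactory nerve summed to 322, 291 and 324 CPM. The source of these transcripts was not tested.

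The odorant receptors are the largest gene family of the mouse genome, and most mature OSNs each express a single allele of a single receptor gene. A receptor's level in whole tissue therefore reflects both how many neurons chose it and how much RNA each makes. The table held 1407 genes with an Olfr symbol, 1136 of them protein coding. In the 3 mice 999, 1041 and 1027 were above 3 counts, and 981, or 69.7%, were above it in each. Of the protein-coding receptor genes 974 were above it in each mouse, or 85.7%, against 7 of the 271 genes of other types. A total of 1061 were above it in at least 1 mouse, and 822 reached 1 CPM in each. For those at or under the floor, expression was not detectable at this depth.

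All receptor genes together made up 6312, 6723 and 6291 CPM, a mean of 6442 ± 244 (SD, n = 3), or 0.464, 0.781 and 0.736% of the counts. For each count of Omp there were 1.47, 1.38 and 1.34 counts of receptor RNA. The receptor sum thus varied little relative to the neurons, although the share of the library was lowest in wild-type mouse 1. The median receptor detected in each mouse had a mean level of 3.71 CPM, the quartiles were 1.95 and 7.39 CPM and the highest was 155 CPM.

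**Figure D3:**
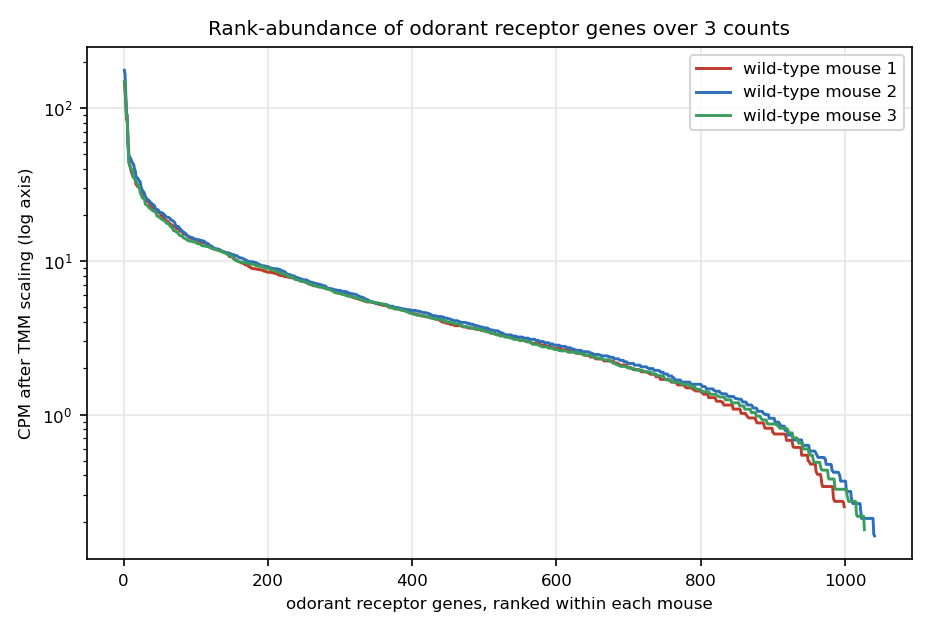
CPM after TMM scaling (log axis) of odorant receptor genes above 3 counts, ranked within each of the 3 wild-type mice. The 3 curves overlie each other over most of their length, with a steep start from a few genes over 80 CPM and a long shallow slope, and they end at 999, 1041 and 1027 genes.

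The receptor repertoire was broad but uneven. The 10 most abundant receptors held 12.5, 13.2 and 12.8% of receptor counts, 50% was held by 138, 136 and 143 genes, and 90% by 581, 589 and 589 genes. The number of equally abundant receptors that would give the same inverse Simpson index, a measure weighted to the abundant ones, was 279, 254 and 273. These values differed by less than 10% between the mice, even though the libraries differed in gland RNA by 18.0-fold.

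Olfr1507 (GRCm38 chromosome 14, 52488791 to 52495749, minus strand) had the highest mean CPM, which is not divided by transcript length, with 147, 176 and 141 CPM, followed by Olfr536 on chromosome 7 with 128.5, 165 and 149 CPM. Olfr727, Olfr166 and Olfr533 followed with means of 113 ± 5.69, 87.3 ± 4.35 and 87.0 ± 3.31 CPM (SD, n = 3). Olfr536 and Olfr1507 overlapped in their range of CPM and changed places in wild-type mouse 3, and so did Olfr166 and Olfr533 in wild-type mouse 1. Per kilobase the order was Olfr1507 at 55.1 ± 6.79, Olfr727 at 43.2 ± 2.17, Olfr536 at 34.8 ± 4.34 and Olfr533 at 30.3 ± 1.15 CPM per kilobase (SD, n = 3), and Olfr166, at 20.0 ± 0.996, lay within the spread of Olfr726 at 20.8 ± 3.21. The next by CPM, Olfr1372-ps1, had a mean of 52.6 ± 14.1 CPM but 5.36 ± 1.43 CPM per kilobase. It is annotated as a transcribed pseudogene, was at 36.7, 57.9 and 63.3 CPM, and shares 96.3% of 1795 bases with Olfr1383. Olfr1228, Olfr728, Olfr124 and Olfr1264 completed the 10 highest, with means between 41.1 and 50.4 CPM. Among all detected receptors 457, or 46.6%, had a copy with 90% identity or more along 300 or more bases, and their single values may hold reads of the copy.

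**Figure D4:**
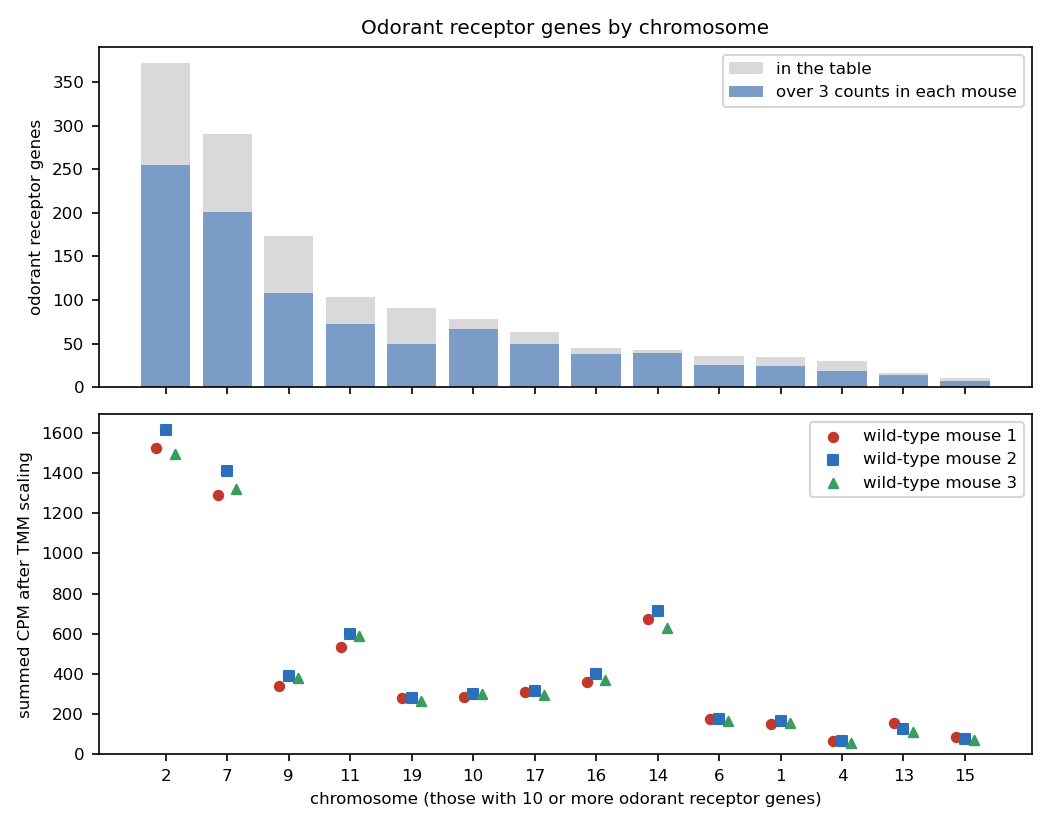
The upper panel shows the number of odorant receptor genes in the table (grey) and above 3 counts in each wild-type mouse (blue) for chromosomes with 10 or more, and the lower panel their summed CPM after TMM scaling in each mouse. Chromosome 14 has 42 genes and a summed level of 671, 716 and 628 CPM, above chromosome 9 with its 173 genes in every mouse.

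The receptor genes are spread over clusters on most chromosomes, and their RNA was not spread in proportion to their number. Chromosome 2 held 372 of the genes and 24.0% of receptor CPM, and chromosome 7 held 291 genes and 20.8%. Chromosome 9 held 12.3% of the genes but 5.73% of the CPM, at 339, 388 and 379 CPM. Chromosome 14 held 2.99% of the genes and 10.4% of the CPM, with 39 of its 42 genes detected in each mouse. Olfr1507, Olfr727 and Olfr728 all lie there, the latter pair as neighbors at 50123186 to 50128746 and 50133758 to 50142680. On chromosome 19, where the Ms4a cluster also lies, 50 of 91 receptor genes were detected in each mouse. Of those 91, 66 are protein coding, against 40 of 42 on chromosome 14.

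Receptor genes were called at shares near those of all tested genes, which are not matched for level. Of all tested genes at 1 to 10 CPM, where the quartiles of the detected receptors lie, 20.8% were called and 11.3% at 2-fold or more. Of 1030 receptor genes tested, 255, or 24.8%, were called and 80, or 7.77%, at 2-fold or more, against 28.2% and 6.6% of all genes. Of these 80, 22 were highest and 46 lowest in wild-type mouse 1, while over all tested genes 3.07% were called so with wild-type mouse 1 highest and 2.16% with it lowest. Olfr44 (chromosome 9) had the widest range among receptors at a mean of 2 CPM or more, with 1, 78 and 34 counts, or 0.0678, 4.09 and 1.84 CPM, a ratio of at least 20.1 against the floor. Olfr1180 was at 5.42, 3.10 and 1.3 CPM, Olfr1284 at 4.75, 1.26 and 1.32 CPM and Olfr1208 at 1.15, 4.38 and 2.79 CPM.

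**Figure D5:**
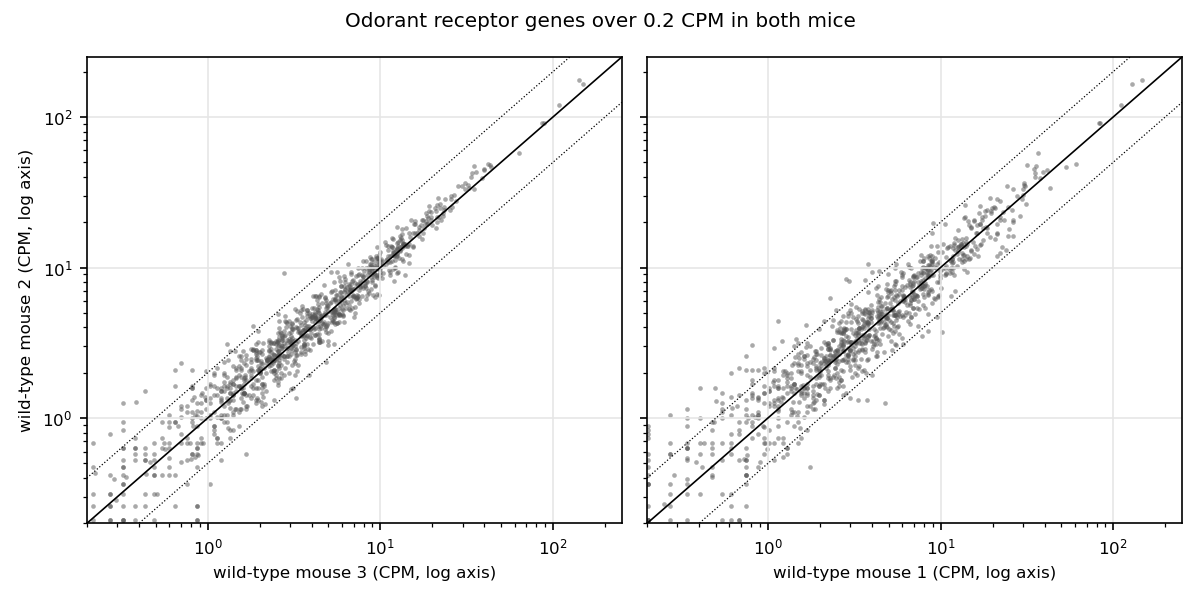
CPM after TMM scaling (log axes) of each odorant receptor gene in wild-type mouse 2 against wild-type mouse 3 (left) and against wild-type mouse 1 (right), with a solid line at equal levels and dotted lines at 2-fold. The points lie nearer the line on the left, where 13 of 888 genes at 1 CPM or more differed by 2-fold, than on the right, where 48 did.

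Across the 888 receptor genes at a mean of 1 CPM or more, log2 levels had a Pearson correlation of 0.960 between wild-type mice 2 and 3, and of 0.922 and 0.919 between wild-type mouse 1 and these. Spearman's rho was 0.958, 0.927 and 0.920 for the same pairs. These describe likeness across genes, which share a library and are not independent replicates. The receptors that differed by 2-fold numbered 13 between wild-type mice 2 and 3, 48 between 1 and 2, and 54 between 1 and 3.

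Other chemosensory receptors were rare. Of 16 trace amine-associated receptor genes 11 were above the floor in each mouse, with sums of 14.5, 22.2 and 20.8 CPM. Vomeronasal receptors belong to a separate organ, and 1 of 349 type 1 and 3 of 240 type 2 genes were above the floor in each mouse. The Ms4a genes summed to 15.3, 15.4 and 16.2 CPM with 8 of 21 above the floor in each, and 4 reached 1 CPM in each mouse. The chi-square test called 0 of the 9 tested, and likewise 0 at an unadjusted p under 0.05, against 28.2% called of all tested genes. Of genes below 1 CPM 12.9% were called, and from 1 to 10 CPM 20.8%. At these low levels 0 of 9 does not show that the Ms4a genes were stable.

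Over all genes at a mean of 1 CPM or more, 16309 in number, 309 or 1.89% differed by 2-fold or more between wild-type mice 2 and 3. Between wild-type mouse 1 and these it was 600 (3.68%) and 691 (4.24%). The biological coefficient of variation, the spread between mice beyond counting error in edgeR's common dispersion, was 20.9% with all 3 mice and 10.7% without wild-type mouse 1. Without wild-type mouse 1, 1491 genes were called in place of 5702. Spread fell with level at first, since the median coefficient of variation was 41.6% below 1 CPM, 16.6% from 1 to 10 CPM, 6.78% from 10 to 100 CPM and 5.14% from 100 to 1000 CPM. It was 7.0% above 1000 CPM, where 17 of 72 genes were called at 2-fold or more. Genes named after their lower values in wild-type mouse 1 were seen include the nuclear proteins Trnp1, at 49.3, 167 and 164 CPM, and Hmgn2, at 77.9, 220.0 and 210.3 CPM, and the latter shares 98.9% of 732 bases with Gm10282.

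The ribosomal protein genes summed to 25276, 21303 and 21481 CPM. Of the 86 tested, 76 were called (88.4%) with 0 at 2-fold or more, against 28.2% and 6.6% of all tested genes. The order of the mice in ribosomal protein genes depended on the scaling, since as a share of counts these genes held 1.86, 2.47 and 2.51%. The mitochondrially encoded genes behaved in the same way, with 59057, 53510 and 53767 CPM. All 15 tested were called, 0 at 2-fold or more, beside the same 28.2% and 6.6%. As a share of counts, wild-type mouse 1 was lowest for both groups.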

How the data were processed

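RNA of the main olfactory epithelium of 3 wild-type mice was examined. The authors aligned paired reads of directional poly-A libraries with STAR 2.6.1 to GRCm38 (mm10), quantified them with RSEM 1.3.1 on the GENCODE annotation within DolphinNext, and deposited expected counts for 55291 genes without normalization. The processing notes also name DESeq2 1.30.1 and R 4.0.0, which the authors used for comparisons not made here. RSEM divides reads shared by near-identical genes by estimation, so values of such genes depend on that step.

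Groups and replicate numbers came from the sample labels. TMM factors and common dispersion came from edgeR 4.0.16 in R 4.3.3, and CPM was computed from the deposited expected counts. The test of homogeneity over libraries (scipy 1.17.1) used values rounded to integers and took in every gene whose 3 libraries together reached 10 counts, and calls needed an adjusted p under 0.05. It was tested on simulated data. GENCODE M21, also on GRCm38, supplied coordinates, biotypes and transcript lengths for the 99.6% of genes that shared a transcript with it. Copies were sought with blast 2.17.0. Promoter windows came from RefSeq on GRCm38.p6. Libraries summed to 20047533, 16406654 and 15772418 expected counts, and a chi-square over genes showed that no pair was a duplicate, at 10.9 or more for each degree of freedom. With 3 mice and no comparison between groups, no p for a condition was computed.

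The mice, marker lists and tests were chosen with earlier results of these data known. Named are the genes of the marker lists, the 10 genes with the highest mean CPM and per-length level, the 10 receptors with the highest mean, the 10 genes with the largest ratio of highest to lowest among called genes at a mean of at least 10 CPM, and 5 such receptors at a mean of at least 2 CPM. Genes outside this rule are identified. Some genes that the rule names are not reported here. Alternatives were plain library size, DESeq2 1.42.0 size factors and dispersions, other detection limits and filters, library sizes without mitochondrially encoded genes, per-length levels, and leaving out each mouse. A library size without the nasal gland list and the 10 most abundant genes of wild-type mouse 1 was added after seeing the data.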

Additional observations from a re-analysis of the deposited data

How the results depend on the processing

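With 3 mice of 1 group, values describe these animals, and wild-type mouse 1 alone carries most of the spread. No paired analysis was possible because the 3 mice form 1 group and no groups were compared. The summed mature OSN level, 18024 CPM, became 19715 CPM with mitochondrially encoded genes left out of the library size and 21222 CPM with the nasal gland genes left out, an alternative chosen after seeing the data. The same alternatives gave 28973 and 31290 CPM (28807 CPM by length) for the sustentacular list, in place of 26583, and 176 and 192 CPM (133 CPM by length) for the horizontal basal list, in place of 164. By length, the macrophage list moved from 361 to 481. Leaving out each mouse gave 16389 to 21571 CPM for mature OSN genes, 24313 to 31433 CPM for sustentacular genes, 154 to 183 CPM for horizontal basal genes and 5847 to 7586 CPM for summed receptors, as the scaling is set anew on the remaining mice. The genes called as different between mice numbered 5702, 15424 with plain library size and 1491 to 4677 with each mouse left out, the lowest without wild-type mouse 1. The coefficient of variation of 20.9% became 4.76% with DESeq2's median gene-wise dispersion, a median and not a common value, and 10.7 to 24.0% with each mouse left out. The count of genes detected stayed between 15348 and 18507, and that of receptors detected in each mouse between 822 and 1014. Of the 20 other list sums, 20 stayed within 1 SD of their mean with DESeq2 size factors, 19 with plain library size and 4 by length. This compares means only, and the SD over mice can widen. With plain library size the SD of the sustentacular list was 7185 CPM, in place of 759 CPM. Causes other than the construction of each alternative were not tested.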
